A study of Homo sapiens with 9 samples.

Results

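The genes described here are 41 protein-coding genes of tRNA charging and tRNA export, taken by name from a table of 58735 genes. They comprise 19 cytosolic aminoacyl-tRNA synthetase genes, 16 mitochondrial ones, 2 genes whose products serve both compartments (GARS and KARS), 3 factors of the multisynthetase complex (AIMP1, AIMP2 and EEF1E1) and the tRNA exporter gene XPOT. RNA was sequenced from OVCAR3, an established human ovarian cancer cell line, after 72 h in culture. The 3 groups had 3 libraries each. The scramble group carried a control short hairpin RNA, and the others carried hairpin 76 (sh76) or hairpin 78 (sh78), which are separate hairpins against GPX3, the gene of a secreted glutathione peroxidase. All 9 libraries thus came from hairpin-bearing cells of 1 line, and the labels do not say whether replicates were separate cultures or transductions, so the p-values measure the spread between these libraries, which may be technical. The question was the role of GPX3 in these cancer cells, and each hairpin was compared with scramble and with the other hairpin.

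An aminoacyl-tRNA synthetase joins an amino acid to its tRNA, the step that makes tRNAs usable by ribosomes. Human cells keep separate sets of these enzymes for the cytosol and the mitochondrial matrix. All are encoded in the nucleus, nearly all by different genes for each compartment, and several cytosolic enzymes sit together in a multisynthetase complex. Many cytosolic synthetase genes are known targets of ATF4, the transcription factor of the integrated stress response, which binds C/EBP-ATF response elements in their promoters.

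Library totals ran from 14652965 to 21327562 counts. All 41 genes passed the filter on low counts, with 42 (TARSL2) to 7495 (EPRS) counts in a library. GPX3 itself stood at 41.9% of scramble with sh76 (log2 fold change −1.25, SE 0.159, edgeR adjusted p = 0.00264) and at 23.1% with sh78 (−2.12, SE 0.166, adjusted p = 0.000125). Of 8 ovarian carcinoma epithelial markers, ESR1 was close to 0, with 0.339 to 1.54 CPM. The summed level of all 8 was 1849 ± 124 FPKM (SD, n = 3) with scramble, 1547 ± 98.8 with sh76 and 1394 ± 50.9 with sh78. Of the 8, 1 was called lower with sh76 (PAX8) and 3 with sh78 (EPCAM, KRT8 and KRT18). The shares of all genes tested called lower were 2.16% and 2.56%. PAX8 was at 0.09 on the log2 scale with sh78, and WT1 was the lowest with sh76, at −0.58, without a call. A fit with a replicate block, described below, called 5 lower and 1 higher with sh76 and 3 lower with sh78. In that fit 10.7% of all genes were lower and 9.63% higher with sh76, and 10.1% lower with sh78. Summed fibroblast, immune and endothelial markers reached at most 5.25, 1.29 and 4.29 FPKM in a library. Of these, CD68 and LUM had 0 counts in 8 of the 9 libraries, and the endothelial receptor gene KDR was called higher with both hairpins (log2 fold change 0.55 and 1.00). The part of these marker shifts in the results below was not tested.

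The promoters are shown before the values because most of the genes called lower with both hairpins hold the same short motif there. RefSeq (GRCh38.p14) gave a promoter window, 250 bases before to 50 after the gene's start, for 34 of the 41 genes. The core of the C/EBP-ATF response element, TGATGNAA, was searched on both strands. It was present in 4 of the 7 genes called lower with both hairpins and in 2 of the other 27. Of all 35116 promoter windows of that length 3.62% held it, and of the 22199 windows of protein-coding genes 2.69%. The motif was chosen with earlier results known, and this split of the genes was not tested. The 6 matches are printed 5′ to 3′ along the gene's strand, with the motif in capitals. In AARS, GARS, IARS and MARS the motif lies on the strand opposite to the gene, so its reverse complement is seen.
AARS: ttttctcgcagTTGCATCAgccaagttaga
IARS: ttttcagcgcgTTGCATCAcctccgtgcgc
MARS: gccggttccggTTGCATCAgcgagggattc
GARS: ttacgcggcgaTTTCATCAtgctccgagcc
NARS: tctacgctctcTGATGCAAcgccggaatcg
YARS2: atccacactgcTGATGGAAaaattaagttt

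AARS, IARS, MARS and NARS carried the same 8 letters, TGATGCAA, read on the motif's own strand. GARS had TGATGAAA and YARS2, the single mitochondrial enzyme of the 6, had TGATGGAA. The window of AARS is chr16:70289675-70289704 on the minus strand, and its motif begins 187 bases before the start. IARS (chr9:92293692-92293721, minus strand) has it 13 bases before the start, MARS (chr12:57488053-57488082, plus strand) 4 bases before, and GARS (chr7:30594834-30594863, plus strand) 33 bases before. In NARS (chr18:57621804-57621833, minus strand) it lies at base 15 of the transcript, within the transcribed part. YARS2 (chr12:32756076-32756105, minus strand) has it 197 bases before the start. The RefSeq start of MARS lies 12623 bases inside the gene as the count table annotates it. That of CARS, called with both hairpins but without a match, lies 16629 bases inside, so other starts of these genes were not searched. A match is a run of letters in these windows, and no binding was measured.

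Against scramble, 7 of the 41 genes fell with sh76 and none rose, where 2.16% of the 17023 genes tested were called lower and 1.43% higher (edgeR, adjusted p under 0.05). With sh78, 11 of the 41 fell and none rose, where 2.56% of all genes tested were called lower and 1.85% higher. The 7 that fell with sh76 were among the 11: AARS, CARS, GARS, IARS, MARS, SARS and XPOT. NARS, WARS, YARS and the mitochondrial TARS2 passed with sh78 only. With the replicate number as a block, described below, NARS and YARS passed with sh76 too (edgeR adjusted p = 0.00744 and 0.000231). The direct comparison of the hairpins called none of these 4 genes without the block, and with it called WARS (adjusted p = 0.00259), TARS2 (0.00419) and YARS (0.049) lower with sh78. Called lower with both hairpins were 7 of 41 genes, against 0.881% of all genes tested. The hairpin comparisons share their scramble libraries, so they are not independent. In bulk RNA a lower level can mean fewer cells that express a gene or less RNA per cell, and these cannot be told apart.

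Most of the genes that fell encode cytosolic enzymes. Of the 19 cytosolic synthetase genes, 5 fell with sh76 and 8 with sh78. Of the 16 mitochondrial ones, 0 fell with sh76 and 1, TARS2, fell with sh78. The share that fell among all genes tested was 2.16% (sh76) and 2.56% (sh78). For 16 genes, counts of 0 and 1 are near those shares, so nothing is read from the mitochondrial counts. No synthetase gene of either compartment rose. The median log2 fold change of the cytosolic genes was −0.11 with sh76 and −0.07 with sh78, that of the mitochondrial genes was −0.01 in both, and that of all genes tested was 0.01 in both. Of the 19 cytosolic genes, 11 passed with neither hairpin. For 10 of the 41 genes the highest of the 6 hairpin libraries was lower than the lowest of scramble, where 4.82% of all genes tested did so. These 10 included 7 of the 19 cytosolic and 0 of the 16 mitochondrial synthetases. That mitochondrial count of 0 is also near the share of all genes, so nothing is read from it. The difference between the compartments was not tested, since the genes were chosen with earlier results known.

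**Figure D1:**
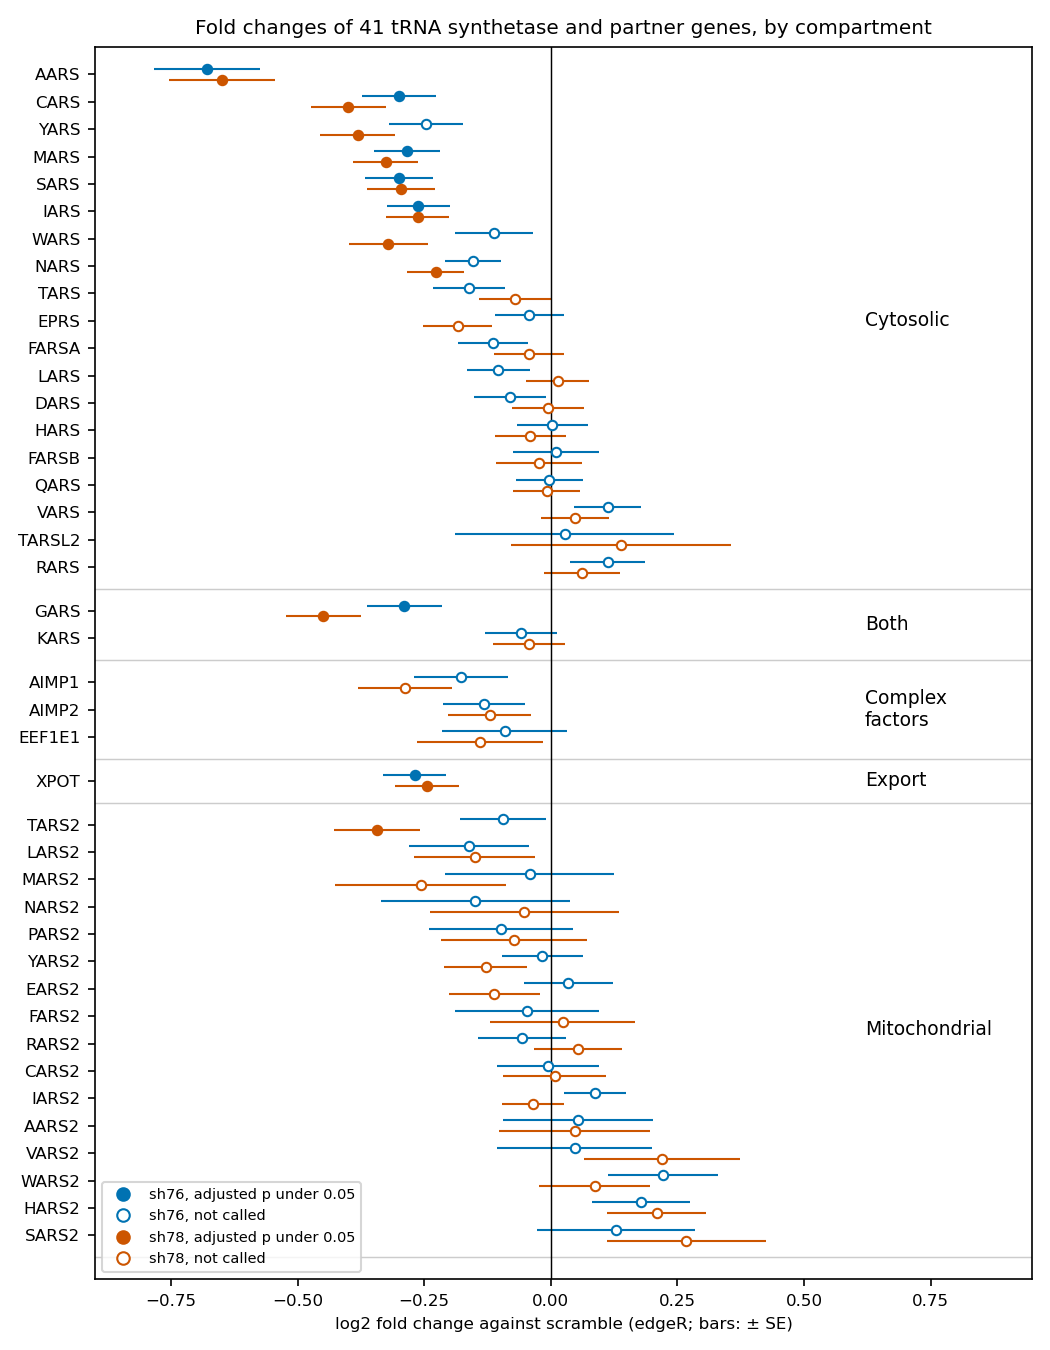
Log2 fold change against scramble (x axis, edgeR, bars ± SE, 3 libraries a group) of each of the 41 genes, grouped by compartment or role; blue is sh76 and orange sh78, and filled points have an adjusted p under 0.05. The filled points lie in the cytosolic group, at GARS and at XPOT, and 1 of them, TARS2 with sh78, lies in the mitochondrial group.

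AARS, which charges tRNA with alanine, changed most. Its level was 142, 138 and 122 CPM (the count relative to the library's total, scaled with TMM factors) for scramble replicates 1 to 3, 91.7, 81.3 and 78.3 with sh76, and 98.8, 84.9 and 72.4 with sh78. Every hairpin library lay below every scramble library, with both hairpins close to 63% of scramble in the fit (62.5% and 63.7%). edgeR gave a log2 fold change of −0.68 with sh76 (SE 0.104, adjusted p = 0.00313) and of −0.65 with sh78 (SE 0.105, adjusted p = 0.00326). The call held with both hairpins under each of the 16 other settings tried. AARS is on chromosome 16 (70252295 to 70289543, minus strand).

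CARS, the cysteine enzyme, read 80.3, 71.6 and 70.4 CPM with scramble, 56.9, 61.8 and 61.8 with sh76, and 56.4, 57.1 and 55.0 with sh78. Both hairpin groups lay below scramble and overlapped each other, and the spread within sh78 was narrow. The fitted change in edgeR was −0.30 on the log2 scale with sh76 (SE 0.0739, adjusted p = 0.0379) and −0.40 with sh78 (SE 0.0744, adjusted p = 0.00674).

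GARS charges glycine in both compartments from a single gene. It read 198, 167 and 187 CPM with scramble, 139, 153 and 160 with sh76, and 135, 140 and 129 with sh78. On the log2 scale it fell by 0.29 with sh76 (SE 0.0741, adjusted p = 0.0458 in edgeR) and by 0.45 with sh78 (SE 0.0745, adjusted p = 0.00328). No hairpin library reached the lowest scramble value. KARS, the lysine enzyme and the other gene that serves both compartments, had 150, 147 and 162 CPM with scramble, 139, 141 and 161 with sh76, and 141, 154 and 151 with sh78. Its groups overlapped, and its log2 fold changes of −0.06 (95% interval −0.23 to 0.12) and −0.04 (−0.22 to 0.13) did not pass (edgeR adjusted p = 0.738 and 0.829).

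MARS and IARS, the methionine and isoleucine enzymes, are subunits of the multisynthetase complex. MARS read 321, 332 and 323 CPM with scramble, 246, 282 and 272 with sh76, and 248, 275 and 254 with sh78. In edgeR this was a log2 fold change of −0.28 with sh76 (SE 0.0645, adjusted p = 0.0254) and −0.33 with sh78 (SE 0.0647, adjusted p = 0.0094). IARS, at 273, 261 and 262 CPM with scramble, read 208, 225 and 231 with sh76 and 216, 234 and 214 with sh78. Both of its log2 fold changes were −0.26 (SE 0.062 and 0.0621, edgeR adjusted p = 0.0309 and 0.0276). For both genes the hairpin libraries lay below scramble throughout. MARS shares 355 exonic bases, 5.05% of its exons, with DDIT3 on the opposite strand, and the libraries carry no strand. DDIT3 fell as well, but its mean count was 180.6 against 4925 for MARS.

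The other 6 synthetases of the complex did not pass with either hairpin. EPRS, which holds the glutamate and proline activities in 1 protein, came closest with sh78 (log2 fold change −0.18, SE 0.0686, edgeR adjusted p = 0.167). With sh76 its value was −0.04 (SE 0.0684, adjusted p = 0.812). QARS, LARS, DARS and RARS, for glutamine, leucine, aspartate and arginine, together with KARS, lay between −0.10 and 0.11 with sh76 and between −0.04 and 0.06 with sh78. So 2 of 8 complex synthetases fell with each hairpin, where the 8 include the uncalled KARS. Of the 12 cytosolic ones outside the complex 3 fell with sh76 and 6 with sh78. These 12 leave out GARS, which serves both compartments and fell with both hairpins, so the sets are not alike. Of all genes tested, 2.16% (sh76) and 2.56% (sh78) were called lower. The 3 scaffold factors did not pass the test. AIMP1 was at −0.18 (SE 0.0924, adjusted p = 0.346) and −0.29 (SE 0.0932, adjusted p = 0.108). AIMP2 was at −0.13 and −0.12, and EEF1E1 at −0.09 and −0.14. AIMP2 shares 28.9% of its exon bases with EIF2AK1 on the opposite strand, whose mean count was 4542 against 576.2, so its counts are uncertain in libraries without strand.

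SARS charges serine, and also the selenocysteine tRNA, which is loaded with serine before selenocysteine is made on it. It read 192.5, 172 and 182 CPM with scramble, 138, 149 and 157 with sh76, and 155, 147 and 144 with sh78. Again no hairpin library reached the lowest scramble library. Either hairpin gave a log2 fold change of −0.30 (SE 0.0673 and 0.0674, edgeR adjusted p = 0.0239 and 0.0226).

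XPOT exports mature tRNAs from the nucleus. It had 281, 291 and 269 CPM with scramble, 221, 246 and 230 with sh76, and 229, 249 and 231 with sh78. Both hairpin groups lay below scramble and overlapped each other. XPOT fell by 0.27 on the log2 scale with sh76 (SE 0.0625, adjusted p = 0.0286 in edgeR) and by 0.24 with sh78 (SE 0.0626, adjusted p = 0.0407).

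YARS, WARS and NARS, for tyrosine, tryptophan and asparagine, were the cytosolic genes that passed with sh78 alone. YARS was level within sh76, at 131, 130 and 130 CPM, against 156, 158 and 151 with scramble and 112, 135 and 111 with sh78. It missed the threshold with sh76 (−0.25, SE 0.0734, edgeR adjusted p = 0.0835) and passed with sh78 (−0.38, SE 0.0738, adjusted p = 0.00837). WARS is also known as an interferon-induced gene. It had 147, 118 and 128 CPM with scramble, 118, 118 and 127 with sh76, and 109, 102 and 103 with sh78, so that only sh78 lay wholly below scramble. The edgeR estimates for WARS were −0.11 with sh76 (SE 0.0776, adjusted p = 0.498) and −0.32 with sh78 (SE 0.0781, adjusted p = 0.0319). NARS varied little within scramble, at 206, 204 and 203 CPM, and was lower in all hairpin libraries, at 178, 187 and 185 with sh76 and 171, 182 and 170 with sh78. NARS gave −0.15 (SE 0.0557, edgeR adjusted p = 0.159) with sh76 and −0.23 (SE 0.0559, adjusted p = 0.0335) with sh78.

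**Figure D2:**
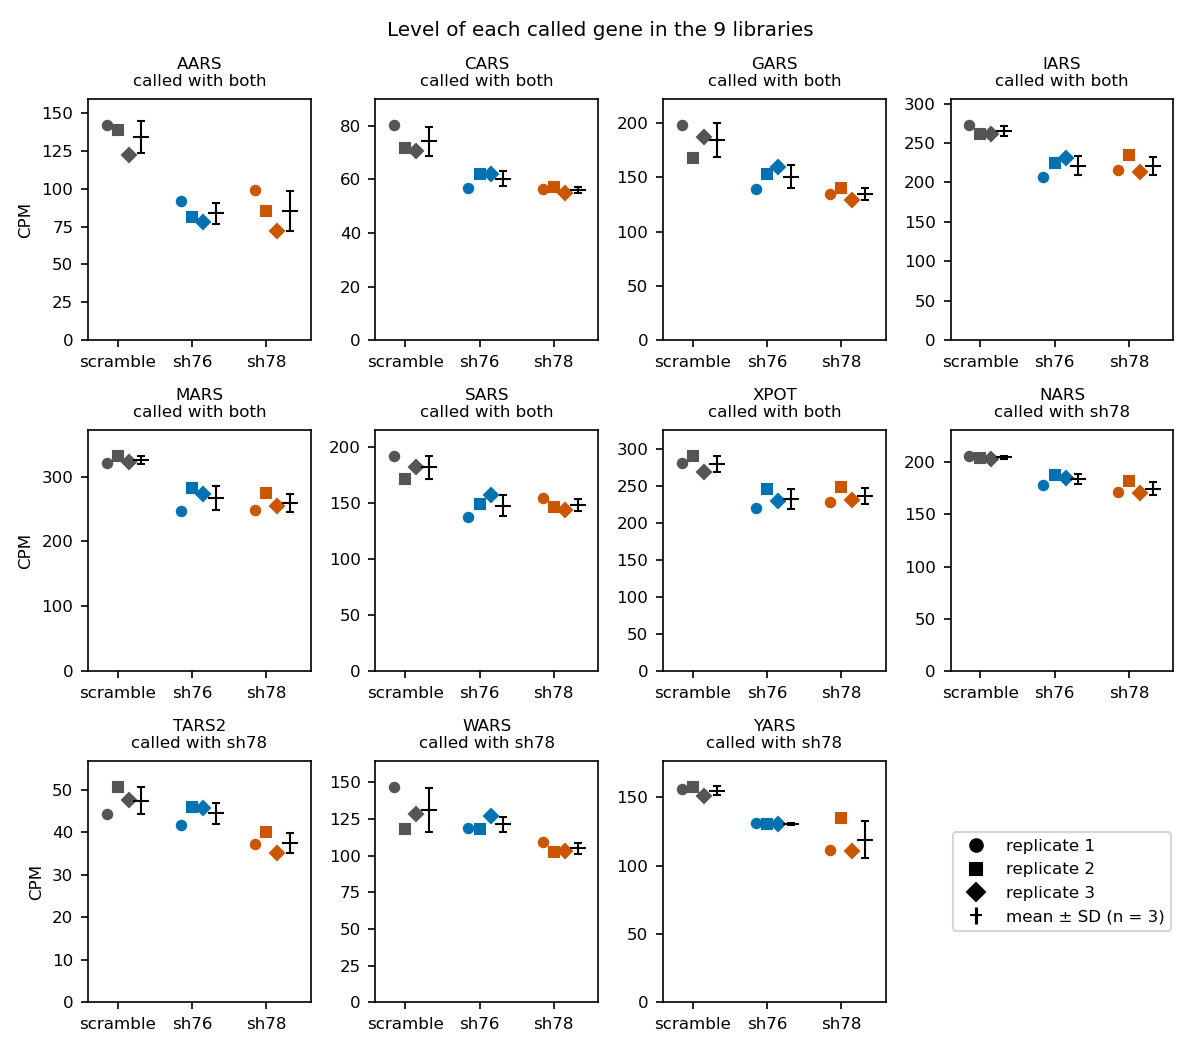
CPM (y axis, from 0) of the 11 genes called lower with at least 1 hairpin, in each of the 9 libraries; marker shape gives the replicate number and black bars the mean ± SD of 3 libraries. The scramble libraries of AARS lie between 122 and 142 CPM and its hairpin libraries between 72.4 and 98.8, while TARS2 and WARS with sh76 overlap scramble.

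The remaining cytosolic enzymes did not pass with either hairpin. The threonine enzyme TARS, at 338 ± 25.5 CPM with scramble, gave −0.16 and −0.07. FARSA and FARSB, the paired subunits of the phenylalanine enzyme, gave −0.11 and 0.01 with sh76 and −0.04 and −0.02 with sh78. HARS, for histidine, lay at 0.00 and −0.04, and VARS, for valine, at 0.11 and 0.05. TARSL2, another cytosolic threonine enzyme, was the lowest-expressed of the 41 genes. It had 2.76, 3.40 and 3.50 CPM with scramble, 3.70, 3.34 and 2.86 with sh76, and 3.93, 3.99 and 2.73 with sh78. Those groups overlapped, and its log2 fold changes of 0.03 (SE 0.216, edgeR adjusted p = 0.969) and 0.14 (SE 0.218, adjusted p = 0.819) carried the largest errors of the 41. By catalytic class, 3 of 9 class I and 2 of 9 class II cytosolic genes fell with sh76, and 5 and 3 with sh78, leaving out EPRS, which has a domain of each class. Among all genes tested, 2.16% (sh76) and 2.56% (sh78) fell, and the difference between the classes was not tested.

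Among mitochondrial enzymes, TARS2 was the one call. It read 44.2, 50.7 and 47.5 CPM with scramble, 41.6, 45.9 and 45.8 with sh76, and 37.2, 40.0 and 35.1 with sh78. Only the sh78 libraries lay wholly below scramble, at 78.8% of it in the fit. Its estimates in edgeR were −0.09 with sh76 (SE 0.0841, adjusted p = 0.621) and −0.34 with sh78 (SE 0.0852, adjusted p = 0.035). The call was lost when scramble replicate 2 or 3, sh76 replicate 2, or sh78 replicate 1 or 3 was left out (edgeR adjusted p up to 0.137), and when the fit held only the sh78 and scramble libraries (adjusted p = 0.0609).

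The other 15 mitochondrial genes ran from −0.16 (LARS2) to 0.22 (WARS2) with sh76 and from −0.26 (MARS2) to 0.27 (SARS2) with sh78. AARS2, the mitochondrial alanine enzyme, had 20.8, 20.0 and 14.9 CPM with scramble, 20.3, 19.5 and 17.9 with sh76, and 20.0, 22.0 and 15.5 with sh78. Its groups overlapped, and its log2 fold changes were 0.05 (95% interval −0.31 to 0.42) and 0.05 (−0.32 to 0.41). IARS2, the highest of the mitochondrial genes per length, gave narrower intervals, −0.06 to 0.24 with sh76 and −0.18 to 0.11 with sh78. At an unadjusted p under 0.05 the count was 0 of 16 with sh76 and 1 with sh78, and DESeq2 called 0 and 1. The share of all genes that met either criterion was not computed, so nothing is read from these counts.

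The mitochondrial genes were measured less exactly. Their median level was 22.9 CPM against 135 for the cytosolic genes, and their median SE with sh76 was 0.114 against 0.0698. The smallest fall among the 7 genes called with both hairpins was −0.26 (IARS) with sh76. In the fit without the replicate block, the 95% interval lay wholly above that value for 7 of the 16 mitochondrial genes. For the other 9 it reached it, so these intervals do not tell a fall of that size from none in those 9. They use 6 degrees of freedom and are wider than the edgeR test implies, so the count of 9 may be too high. With the block, described below, the SE could be smaller, at 0.0928 against 0.148 for AARS2 with sh76. No intervals were computed from the block fit. With sh78 the smallest fall was −0.24 (XPOT), and the intervals of 7 of the 15 uncalled mitochondrial genes lay above it. Of the 11 uncalled cytosolic genes, 9 lay above it.

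Levels of different genes were compared per length, in FPKM, where most cytosolic genes stood above most mitochondrial ones. With scramble the cytosolic genes had a median of 29.6 FPKM (range 0.699 to 62.6) and the mitochondrial genes a median of 4.86 FPKM (1.72 to 44.2). EPRS and TARS led the order, at 62.6 and 58.8 FPKM, and VARS2 and TARSL2 ended it. IARS2 and YARS2 stood above their cytosolic counterparts, with a ratio of IARS to IARS2 of 0.807 ± 0.0439 (SD, n = 3) and of YARS to YARS2 of 0.753 ± 0.0225 with scramble. Summed over the 19 cytosolic genes, FPKM went from 582 ± 13.2 with scramble to 525 ± 17.0 with sh76 and 519 ± 15.4 with sh78, or 90.2% and 89.2% of scramble. The sum over the 16 mitochondrial genes was 147 ± 3.39, 148 ± 1.31 and 142 ± 3.29, or 101% and 96.4%. The lowest scramble sum of the cytosolic genes, 569, lay above the highest hairpin sum, 543. The mitochondrial sums overlapped scramble with sh76, while with sh78 the highest, 144.6, lay just below the lowest of scramble, 144.8.

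Setting each cytosolic enzyme against the mitochondrial enzyme of the same amino acid gave 16 pairs, with EPRS used for both glutamate and proline. The log2 fold change of the cytosolic gene was the lower of the pair in 12 pairs with sh76 and in 13 with sh78, with median differences of −0.13 and −0.17. The ratio of AARS to AARS2 in FPKM was 6.99 ± 0.731 with scramble, 4.16 ± 0.171 with sh76 and 4.30 ± 0.541 with sh78. That of SARS to SARS2 was 22.4 ± 1.79, 16.7 ± 2.41 and 15.2 ± 1.91. SARS2 had as few as 101 counts in a library and shares 349 exonic bases with MRPS12 on the opposite strand, whose mean count was 3555 against 130.9 for SARS2. For alanine, cysteine, isoleucine, serine, tryptophan and tyrosine, the ratio in every hairpin library lay below that in every scramble library, 6 of 16 pairs. No share over other gene pairs was computed, so these counts of pairs have no reference beside them. Threonine went the other way with sh78, where the ratio of TARS to TARS2 was 6.13 ± 0.0242 against 5.10 ± 0.669 with scramble.

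**Figure D3:**
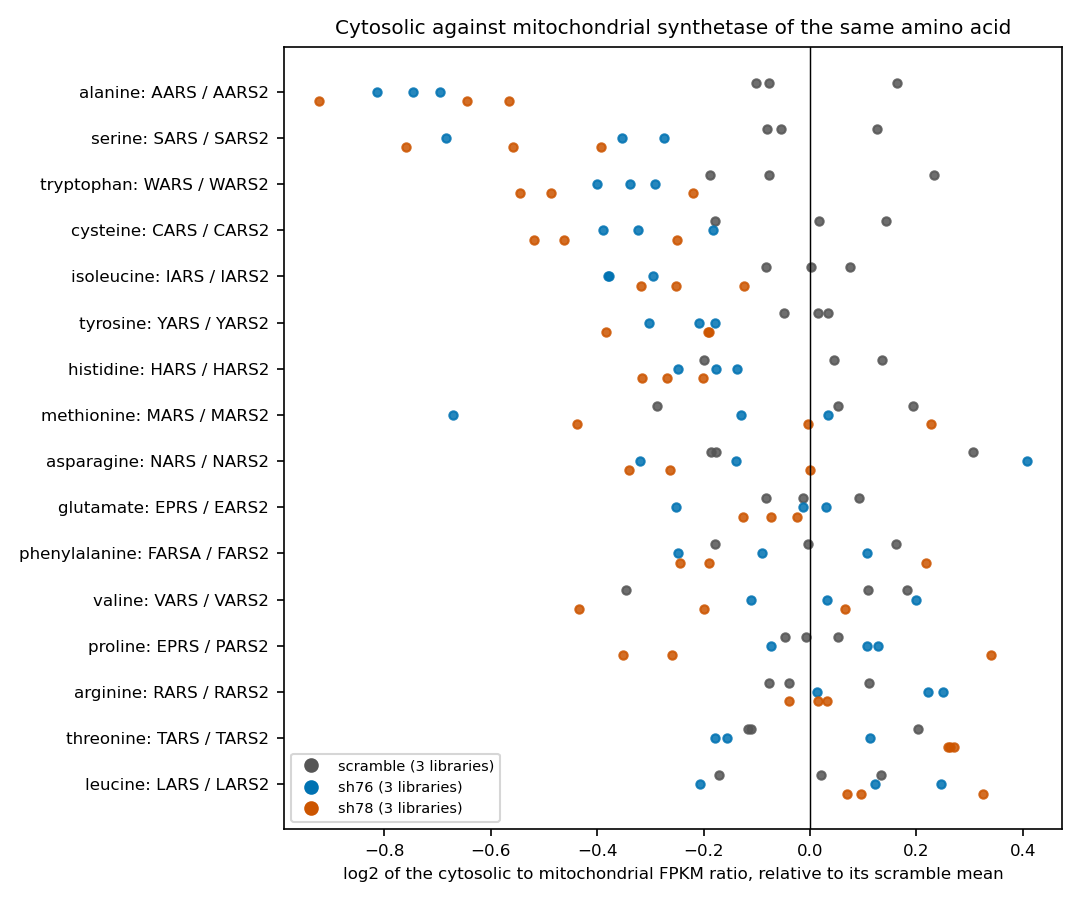
Log2 of the cytosolic to mitochondrial FPKM ratio relative to its mean with scramble (x axis) for 16 amino acids, 1 point a library; grey is scramble, blue sh76 and orange sh78. The 6 hairpin points lie left of all 3 scramble points for alanine, serine, tryptophan, cysteine, isoleucine and tyrosine, and to the right for threonine with sh78.

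With the hairpins compared directly, none of the 41 genes was called (sh78 against sh76, 0 by edgeR and 0 by DESeq2), where 3.7% of all genes tested were called. At an unadjusted p under 0.05 there were 3: TARS2 (log2 fold change −0.25, SE 0.0849, edgeR adjusted p = 0.137), WARS (−0.21, SE 0.078, adjusted p = 0.183) and GARS (−0.16, SE 0.0744, adjusted p = 0.306). The share of all genes at that unadjusted threshold was not computed, so nothing is read from the count. For AARS the difference was 0.03 with a 95% interval of −0.23 to 0.29.

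The replicate numbers were taken to pair the libraries, which the labels do not state, and a fit with the number as a block called more genes. It called 11 of the 41 lower with sh76, adding AIMP1, NARS, TARS and YARS, where 10.7% of all genes tested were called lower in that fit. With sh78 it called 14 lower, adding AIMP1, EPRS and MARS2, against 10.1% of all genes. Called with both hairpins were 10 genes, the earlier 7 with AIMP1, NARS and YARS, against 4.56%. By compartment, 8 and 9 of the 19 cytosolic genes and 0 and 2 of the 16 mitochondrial genes were lower, the 2 being MARS2 and TARS2. Between the hairpins the block called 5 genes against 18.3% of all: IARS2, TARS2, WARS and YARS were lower with sh78 and LARS was higher.

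The calls with sh76 rest on few libraries. Leaving out scramble replicate 1, 2 or 3 left 3, 3 and 2 genes of the 7, and leaving out sh76 replicate 1, 2 or 3 left 1, 3 and 3, with AARS among them each time. With sh78, leaving out scramble replicate 1 or 3 left 6 and 5 of the 11 genes, and leaving out sh78 replicate 3 left 5, with AARS, CARS, GARS, MARS and YARS called each time. Leaving out scramble replicate 2, sh76 replicate 2 or sh78 replicate 1 left 7. Those 5 genes were called with sh78 under all 16 other settings. Libraries of the hairpin not compared, which add to the estimate of spread, also decided calls: GARS with sh76 was lost without sh78 replicate 2 or 3, XPOT with sh78 was lost without sh76 replicate 2 or 3, and NARS, TARS2 and WARS with sh78 were lost without sh76 replicate 2.

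Other genes of tRNA use and of the ATF4 pathway were read from lists. Of 30 ATF4-linked genes of amino acid supply and stress, none of them a synthetase, 20 fell with each hairpin, 19 of them with both, and none rose, against 2.16% (sh76), 2.56% (sh78) and 0.881% (both) of all genes tested called lower. With the block 26 and 29 were lower, against 10.7% and 10.1% of all genes. The block also called 1 of the 30 higher with each hairpin, against 9.63% and 9.79% of all genes: ALDH18A1, an enzyme of proline synthesis, which lay above scramble in all 6 hairpin libraries (log2 fold change 0.19 and 0.20). Their median log2 fold change was −0.51 with sh76 and −0.47 with sh78, larger than that of the cytosolic synthetases, and ATF4 mRNA itself gave −0.27 (SE 0.0564, edgeR adjusted p = 0.0161) and −0.37 (SE 0.0565, adjusted p = 0.00189). The largest mean falls were those of CHAC1, which degrades glutathione (−0.87 and −1.12), MTHFD2, a mitochondrial folate enzyme (−0.79 and −0.80), and the stress regulators DDIT3 (−0.57 and −0.98) and TRIB3 (−0.72 and −0.82). DDIT3 shares 355 of its 1307 exonic bases with MARS on the opposite strand, whose mean count was 4925 against 180.6. Its counts are thus uncertain in libraries without strand. AARS, at −0.68 and −0.65, was the one synthetase with a fall beyond the medians of that list. Of 15 partners of mitochondrial tRNA charging and delivery, 0 passed with either hairpin (median −0.05 and −0.03). With the block 2 were lower and 1 higher with sh76, and 1 was lower with sh78. Of 19 tested genes of cytosolic tRNA delivery, export and maturation, 0 passed without the block (median −0.03 and −0.02), and with it 4 were lower with sh76 and 3 lower and 2 higher with sh78. In lists of this size counts of 0 are near the share of all genes called, so nothing is read from them. The block called 10.7% (sh76) and 10.1% (sh78) of all genes lower and 9.63% and 9.79% higher. Its counts in both tRNA lists are small and were not tested against those shares, so nothing is read from them either.

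**Figure D4:**
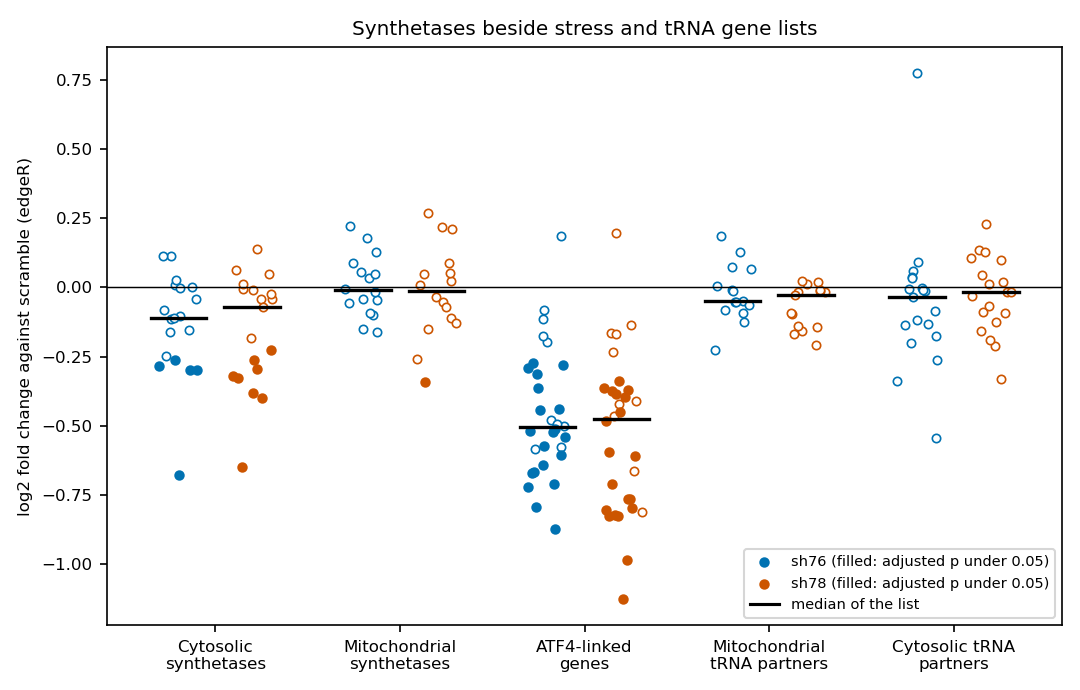
Log2 fold change against scramble (y axis, edgeR) of each gene in 5 lists, with sh76 in blue and sh78 in orange; filled points have an adjusted p under 0.05 and black bars are list medians. Filled points are frequent in the ATF4-linked list, occur among the cytosolic synthetases, and are absent from both lists of tRNA partners.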

How the data were processed

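The authors deposited whole-number counts per gene and FPKM values (fragments relative to gene length and to the library's total) for 9 libraries. Per the submitters' processing notes, the tools included HISAT2 2.0.5 and featureCounts 1.5.0-p3 on hg38, while their settings are not given in the sources used here. Libraries were made from poly-A RNA and were non-directional per the labels' protocols, so reads of genes that overlap on opposite strands cannot be told apart; 23 of the 41 genes share exon bases with another gene. All 58735 identifiers, with start and end, matched GENCODE release 29 on GRCh38. The deposited FPKM equalled counts divided by length and by a library size of 98.09% to 102.97% of the total.

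Tests on the counts used edgeR 4.0.16 (R 4.3.3): filterByExpr (minimum count 10, minimum total 15; 17023 genes kept), TMM factors, robust quasi-likelihood fit over all 9 libraries, and 3 contrasts with Benjamini-Hochberg adjustment over all genes tested, called at an adjusted p under 0.05. The common biological coefficient of variation was 10.4%. The 95% intervals come from the fit without a replicate block and use its 6 residual degrees of freedom. They are wider than the edgeR test implies. Between the hairpins GARS had an unadjusted p of 0.0496 in edgeR, yet its interval ran from −0.34 to 0.02. Alternatives were a replicate block, DESeq2 1.42.0 and its size factors, no filter, 2 groups only, limma 3.58.1 on log2(FPKM + 1) and log2(FPKM + 0.1), and each library left out.

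Same-numbered libraries deviated together (r 0.231 to 0.5 in 9 pairs, across genes, against −0.398 to 0.0851 in 18 differently numbered pairs), so the numbers were taken to pair the libraries; the labels number them 1 to 3 in each group. Chi-square per degree of freedom between replicates was at least 5.199, so none was a duplicate. On simulated data with 200 changed genes among 16763, edgeR recovered 42% (sh76) and 41% (sh78) of those changed 1.5-fold and 66% and 63% of those changed 2-fold, with 9.24% and 4.59% of calls false.

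The members, the lists, the motifs and the naming rule were chosen with earlier results of these data known. Full statistics were given for genes called with both hairpins and for TARSL2, XPOT, GARS and KARS; any of the 41 genes could be named. From each list, up to 4 genes called with both hairpins were named by mean change. ATF4, ALDH18A1, the epithelial markers, and the genes called with sh78 alone were added after their values were seen. TSEN34 and AARSD1, named below, also fall outside the rule.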

Additional observations from a re-analysis of the deposited data

How the results depend on the processing

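Across 16 alternatives, 126 results for single genes (the 41 genes and GPX3 in 3 comparisons) kept their direction where called, and 101 kept their side of the threshold in all 16. Of the 21 called, 8 did so. With sh76, members called lower went from 7 to 11 with the replicate block and to 4 on either FPKM scale, and cytosolic synthetases called lower from 5 to 8 with the block and to 3 on either FPKM scale. With each library left out, these counts were 1 to 7 and 1 to 6. With sh78, the 11 members called became 7 in the fit of 2 groups and 5 to 11 with a library left out, the 8 cytosolic synthetases 4 to 8. The single mitochondrial call became 2 with the block, 0 with 2 groups and 0 to 1 with a library left out. Between the hairpins the block gave 5 members, 4 lower and 1 higher, with 2 cytosolic and 2 mitochondrial synthetases lower, in place of 0. The number of all genes called was 3467, 3388 and 3117 with the replicate block, and 1149, 1212 and 1125 with no filter (sh76, sh78 and between hairpins). With a library left out it was 237 to 655, 418 to 810 and 273 to 780. The median of the mitochondrial synthetases between hairpins lay between −0.065 and 0.0256 with a library left out, against 0.0119 with all. Genes called lower with both hairpins, 7 at first, were 10 with the block, 5 with 2 groups, 3 on either FPKM scale and 1 to 6 with a library left out. The cause of these shifts was not tested. The fits that leave some libraries out also hold fewer of them, and the part of that was not tested either. Depth limits SARS2 and TARSL2 most, with as few as 101 and 42 counts in a library.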

Other observations

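In the promoter windows, the core motif of the factor NRF1 was found in MARS2 alone of the 34 genes (1.24% of all windows and 1.5% of protein-coding ones hold it). The ETS/GABP core CCGGAAGTG was found in EARS2, PARS2, HARS and HARS2 (2.36% of all windows and 3.09% of protein-coding ones). HARS and HARS2, the cytosolic and mitochondrial histidine enzymes, lie head to head on chromosome 5 and share 437 exonic bases, and their motif is the same site. HARS2 was at 113% and 116% of scramble with sh76 and sh78 and HARS at 100% and 97.2%, none of them called (edgeR adjusted p = 0.371, 0.285, 0.992 and 0.837).

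TSEN34, a subunit of the tRNA splicing endonuclease, was called between the hairpins, 1 of the 19 genes tested of the cytosolic tRNA partner list. That count is near the share of all genes called, 3.7%. TSEN34 had 632, 601 and 611 CPM with sh78 against 522, 525 and 537 with sh76 (log2 fold change 0.22, SE 0.0557, edgeR adjusted p = 0.0435). AARSD1, an editing factor related to AARS, had the largest fold change of that list, 0.77 (SE 0.408, edgeR adjusted p = 0.353) with sh76, but read under 1 CPM in every library.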
